A study of Arabidopsis thaliana with 16 samples.

Results

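The 10 photorespiration genes described here were GOX1 (AT3G14420), GOX2 (AT3G14415), GLDP1 (AT4G33010), GLDP2 (AT2G26080), SHM1 (AT4G37930), the glycine decarboxylase T protein gene (AT1G11860, written GDCT below), AGT1 (AT2G13360), HPR1 (AT1G68010), CAT2 (AT4G35090) and GLYK (AT1G80380). They were picked by name from the deposited table of 33201 loci, with earlier results of these data known, and each of the 10 had a row of its own. Their levels in the 4 populations were in view when they were picked, so all values below are a description and carry no test.

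Arabidopsis thaliana root tips were collected 5 days after plating, about 1 mm from each root, turned into protoplasts and sorted by GFP. C6 cells were GFP-positive cells of the line pCYCD6:GUS-GFP, in which the promoter of a D-type cyclin marks the cortex endodermis initial (CEI). The w5C6 cells were GFP-positive cells of wox5 x pCYCD6:GUS-GFP, the same reporter crossed into a loss-of-function mutant of the quiescent centre regulator WOX5. W5S and W5NS were the GFP-positive and the GFP-negative cells of pWOX5:erGFP, a reporter of the quiescent centre (QC) in an otherwise wild-type background. Each population had 4 libraries, but the values used here were 1 per locus and population, pooled by the authors. The values used here therefore carry no spread between libraries, and no difference below was set against replicate error. The authors' own fold and q-value columns for these population pairs were left unused. The sequencing depth is also unknown. Values are taken to be FPKM, that is fragment counts corrected for transcript length and for the size of the library. The study describes the CYCD6;1 reporter as reaching into cortex and endodermal cells in wox5, so C6 and w5C6 need not hold the same cell types, and C6 and w5C6 differ from W5NS and W5S by reporter line as well.

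Photorespiration recycles the phosphoglycolate that Rubisco makes when it fixes oxygen in place of carbon dioxide. Glycolate leaves the chloroplast and is oxidised in the peroxisome, the resulting glycine is turned into serine in the mitochondrion, and serine returns through the peroxisome to the chloroplast as glycerate. In leaves the pathway is among the most active of primary metabolism, whereas root cells without photosynthesis use several of its enzymes for one-carbon metabolism and for the removal of hydrogen peroxide.

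The marker genes of the sorts were checked first. WOX5 read 0.0865 FPKM in w5C6 against 18.4 in C6, 42.1 in W5NS and 206 in W5S. CYCD6;1 read 7.01 FPKM in w5C6, 9.75 in C6, 7.02 in W5NS and 0.828 in W5S, so its transcript was as high in W5NS as in w5C6. SCR, a regulator of the endodermis and QC, read 48.9 FPKM in C6 and 47.6 in w5C6, and MGP 52.7 and 30.3. CASP1 of the Casparian strip of differentiated endodermis read 13.3 FPKM in w5C6. It was higher elsewhere, at 389 in C6, 53.1 in W5S and 91.7 in W5NS. CASP2 went from 174 FPKM in C6 to 5.79 in w5C6. All 7 root markers were lower in w5C6 than in C6, SCR the least, with a median log2 ratio of FPKM + 1 of -0.78. WOX5, CASP1 and CASP2 were past 2-fold lower and 0 markers higher, beside 4.90% and 12.3% of all loci. In w5C6 over W5NS 2 markers were past 2-fold higher and 3 lower, beside 16.3% and 3.81% of loci. Summed over all loci the values came to between 726062 and 957091 FPKM per population.

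The clearest differences were in 4 photorespiration genes. These genes, all coding for peroxisomal enzymes, were below 1 FPKM in 3 populations and well above it in w5C6. GOX1 encodes glycolate oxidase, the enzyme that starts the peroxisomal part of the cycle. It read 91.5 FPKM in w5C6, 0.541 in C6, 0.399 in W5NS and 0.205 in W5S. GOX2, its neighbour on chromosome 3 with 0 genes between them, read 20.9 FPKM in w5C6, 0.681 in C6, 0.0379 in W5NS and 0.606 in W5S. Both glycolate oxidase genes were thus under 1 FPKM outside the mutant marker cells. They are close copies and can exchange reads, so the split between them is uncertain. HPR1, the hydroxypyruvate reductase that makes glycerate from hydroxypyruvate, read 43.0 FPKM in w5C6, 0.533 in C6, 0.387 in W5NS and 0.254 in W5S. AGT1, the aminotransferase that uses serine to turn glyoxylate into glycine, read 15.0 FPKM in w5C6 and 0.146 in C6 and was listed at 0 in W5NS and W5S. The 4 genes summed to 170 FPKM in w5C6 against 1.90 in C6, 0.824 in W5NS and 1.07 in W5S. In these bulk sorts, fewer cells that make a transcript and less of it per cell cannot be told apart.

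The fifth peroxisomal gene, CAT2, behaved differently. CAT2 encodes the main leaf catalase, which breaks down the hydrogen peroxide that glycolate oxidase makes. It read 189 FPKM in w5C6, 145 in C6, 102 in W5NS and 114 in W5S. CAT2 was abundant in all populations, and its w5C6 level was 1.30 times that in C6, a small step beside those of GOX1 and HPR1. CAT2 made up 98.7% of the summed level of the 5 peroxisomal genes in C6 and 52.6% in w5C6.

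The mitochondrial genes code for glycine decarboxylase, a complex of P, T, H and L proteins that cleaves glycine, and for serine hydroxymethyltransferase, which makes serine from the product. SHM1, the photorespiratory serine hydroxymethyltransferase, read 53.9 FPKM in w5C6, 9.41 in C6, 10.5 in W5NS and 12.3 in W5S. SHM1 was the only gene of the 10 with clear transcript in all populations and a w5C6 level over 4 times the next highest, at 4.39 times that of W5S. GLDP1, the first P protein gene, read 43.6 FPKM in w5C6, 22.1 in C6, 15.2 in W5NS and 8.79 in W5S. GLDP2, the second P protein gene, read 116 FPKM in w5C6, 93.7 in C6, 91.4 in W5NS and 78.3 in W5S. The P protein gene that was lower in root cells therefore showed the wider spread, 1.97 times from C6 to w5C6 for GLDP1 against 1.24 times for GLDP2. The T protein gene GDCT read 98.0 FPKM in w5C6, 58.4 in C6, 79.7 in W5NS and 99.8 in W5S, and it was the only one of the 10 whose highest value did not fall in w5C6.

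GLYK encodes glycerate kinase, the chloroplast enzyme that closes the cycle by returning phosphoglycerate. GLYK read 37.8 FPKM in w5C6, 32.9 in C6, 18.8 in W5NS and 11.9 in W5S. Both CEI marker populations were above both populations of the WOX5 reporter line here, a difference that cannot be told apart from that between the lines.

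**Figure D1:**
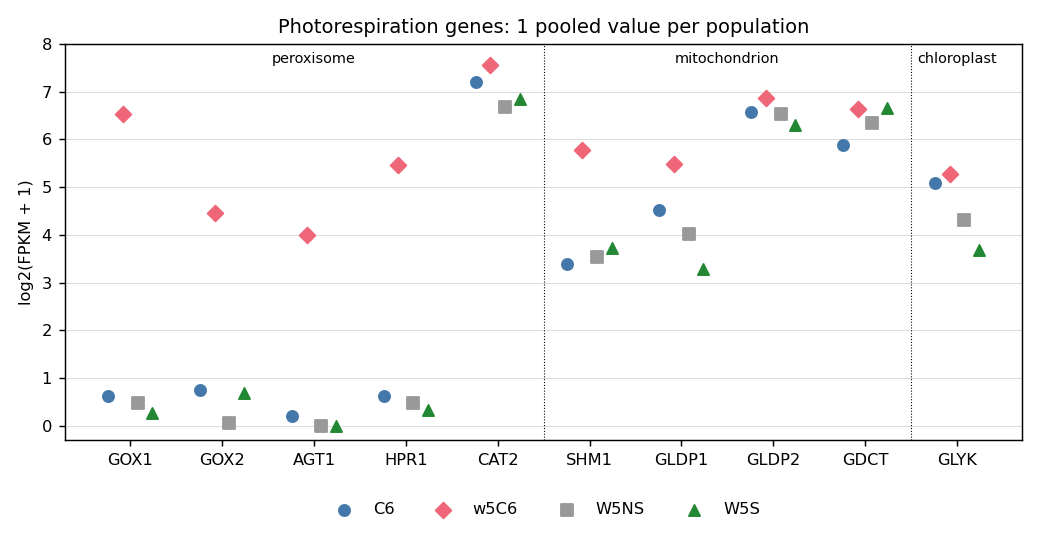
Level of each photorespiration gene as log2(FPKM + 1) in the 4 populations, 1 pooled value each with no error bar, with the compartment of the enzyme above the plot. GOX1, GOX2, AGT1 and HPR1 lie below 1 on this scale in C6, W5NS and W5S and at 4 or above in w5C6, whereas the 4 populations lie close together for CAT2 and GLDP2.

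The order of the populations was w5C6, C6, W5NS, W5S for GOX1, GLDP1, GLDP2, AGT1, HPR1 and GLYK, with AGT1 tied at 0 in the last pair. In GOX2 and CAT2 W5S preceded W5NS, SHM1 ran w5C6, W5S, W5NS, C6, and GDCT ran W5S, w5C6, W5NS, C6. Since no spread was known, neighbours in these orders cannot be called different. The w5C6 population held the highest value for 9 of the 10 genes, where 37.5% of the 22875 loci that reached 1 FPKM in any population were highest in w5C6.

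The comparison of w5C6 with C6 sets the wox5 mutant against wild type within 1 reporter. Changes are given as log2 ratios of FPKM + 1, a scale that understates those of low genes, and a gene is called past 2-fold when this ratio reaches 1 or -1. GOX1, HPR1, AGT1, GOX2 and SHM1, which makes 5 of the 10 genes, were past 2-fold higher in w5C6 and 0 were past 2-fold lower; with equal nuclear sums of the populations GLDP1 passed as well, at 1.04. Of all 22322 loci with at least 1 FPKM in either population, 12.3% were past 2-fold higher and 4.90% lower. At 4-fold the same 5 genes passed higher and 0 lower, beside 2.27% and 1.03% of loci. The log2 ratios of GOX1 and HPR1 were 5.91 and 4.84, which ranked 15 and 38 among the 22322 loci. AGT1 followed with 3.80, GOX2 with 3.70 and SHM1 with 2.40. GLDP1 lay just under the limit at 0.95, and GDCT, CAT2, GLDP2 and GLYK lay at 0.74, 0.38, 0.31 and 0.20. The median over the 10 genes was 1.67, beside 0.10 over all loci. Being under 1 FPKM in C6, GOX1, GOX2, AGT1 and HPR1 could pass in this direction only. Among the 6 genes with at least 1 FPKM in both populations only SHM1 passed, and their median was 0.56. Under that filter 5.97% of 18732 loci were past 2-fold higher and 4.43% lower, with a median of 0.03. All 10 ratios were above 0, also with both other scalings of the populations. The median over all loci was above 0 as well, at 0.097 with median-ratio scaling and 0.18 with equal nuclear sums. The share of all loci above 0 was not counted, so the direction of the 10 ratios has no background beside it. In linear terms the gene sum was 709 FPKM in w5C6 and 364 in C6, and GOX1 alone made up 26.3% of the 345 FPKM between them.

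**Figure D2:**
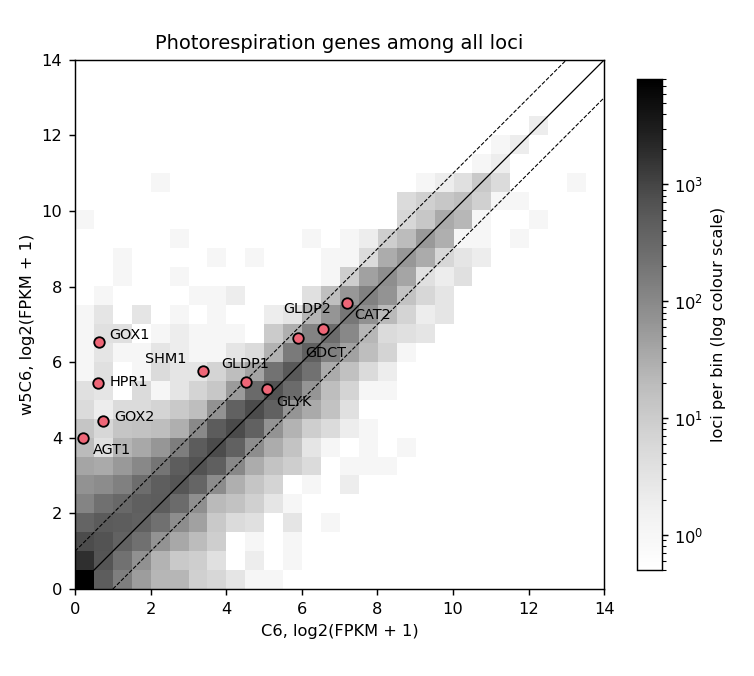
All 33201 loci binned by log2(FPKM + 1) in C6 (horizontal) and w5C6 (vertical), with darker bins holding more loci on a log colour scale, and the 10 photorespiration genes as points. The solid line marks equal values and the dashed lines a 2-fold difference, and GOX1, HPR1, GOX2, AGT1 and SHM1 lie above the upper dashed line.

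The comparison of w5C6 with W5NS, which the study used to define mutant CEI genes, differs in line as well as genotype. Here 6 genes were past 2-fold higher and 0 lower, beside 16.3% of 22285 loci higher and 3.81% lower. With equal nuclear sums 2667 of 22288 loci were higher and 1473 lower. They were GOX1 (log2 ratio 6.05), HPR1 (4.99), GOX2 (4.40), AGT1 (4.00), SHM1 (2.25) and GLDP1 (1.46). GLYK lay just under the limit at 0.97 and CAT2 at 0.88. The median was 1.86, with 0.22 over all loci, a value that became 0.10 when the populations were scaled by median ratios and -0.06 when they were scaled to equal nuclear sums. GDCT moved from 0.29 to -0.004 with the latter. Against W5S, 7 genes were past 2-fold higher, the same 6 and GLYK (1.59), and 0 lower, beside 26.6% of 22169 loci higher and 7.54% lower. The 3 comparisons share the w5C6 libraries, so they are not separate evidence.

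In wild-type CEI marker cells the 10 genes lay closer to W5NS. GOX1, GOX2, AGT1 and HPR1 were under 1 FPKM in C6, W5NS and W5S. On the FPKM + 1 scale they could not pass in the comparisons between these populations, and they are not among the background loci. The counts here therefore rest on the other 6 genes. In C6 over W5NS 0 of the 10 genes were past 2-fold in either direction, beside 11.9% of 20787 loci higher and 6.46% lower, a split that turned to 1435 higher and 2526 lower of 20973 with equal nuclear sums. The log2 ratios ran from -0.44 for GDCT to 0.77 for GLYK, with a median of 0.17 beside 0.11 over all loci. The median of the 10 genes lay between 0.04 and 0.44 under the other settings, and that of all loci became -0.01 with median-ratio scaling and -0.26 with equal nuclear sums. In W5S over W5NS, the comparison within the WOX5 reporter line, 0 genes passed as well, beside 6.32% of 20229 loci higher and 10.7% lower (1050 and 2885 of 20657 with equal nuclear sums), and the ratios ran from -0.73 for GLDP1 to 0.63 for GOX2. In C6 over W5S GLYK (1.39) and GLDP1 (1.24) were past 2-fold higher and 0 lower, beside 19.1% of 20184 loci higher and 8.64% lower. With equal nuclear sums, where 2832 loci of 20046 were higher and 2606 lower, GLDP1 dropped under the limit and GDCT passed in the lower direction at -1.02. The 2 comparisons with W5NS share its libraries.

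Loci present in w5C6 and nearly absent elsewhere were counted next. Of 12028 loci under 1 FPKM in C6, W5NS and W5S, 45 reached at least 10 FPKM in w5C6. These included GOX1, GOX2, AGT1 and HPR1, besides 2 further photorespiration genes and 8 genes of Rubisco and the Calvin cycle. The corresponding numbers of loci high in 1 population alone were 8 for C6, 4 for W5NS and 6 for W5S, with 0 photorespiration genes among them. Fewer loci were listed at 0 in w5C6 (3957) than in C6 (5849), W5NS (5560) or W5S (8239), and the part of this difference in the counts was not tested. These limits were chosen after the values were seen.

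Another 24 genes of photorespiration were examined, again as a list drawn up with earlier results known. In w5C6 over C6 6 of the 24 were past 2-fold higher and 0 lower, beside 12.3% and 4.90% of all loci, with a median log2 ratio of 0.32. The 6 were GDCH1 and GDCH3 for H proteins of glycine decarboxylase, GLU1 for ferredoxin-dependent glutamate synthase, PMDH2 for a peroxisomal malate dehydrogenase, PLGG1 for the chloroplast glycolate and glycerate transporter, and GGAT1 for glutamate:glyoxylate aminotransferase. GDCH1 read 21.8 FPKM in w5C6, 0.617 in C6, 0.346 in W5NS and 0.501 in W5S. GLU1, which supplies glutamate for the return of photorespiratory ammonia, read 13.5 FPKM in w5C6, 0.0546 in C6, 0.380 in W5NS and 0.00231 in W5S. PLGG1 read 9.02 FPKM in w5C6 and 0.681 in C6 and was listed at 0 in W5NS and W5S. All 3 were low in every population but w5C6, as GOX1 and HPR1 were, and being under 1 FPKM in C6 they could pass in this direction only. GGAT1 differed from them, with 99.5 FPKM in w5C6 but also 18.7 in C6, 34.8 in W5NS and 29.98 in W5S. In w5C6 over W5NS 9 of the 24 were past 2-fold higher and 0 lower, these 6 with GOX3, HPR3 and HPR2, beside 16.3% and 3.81% of loci. In C6 over W5NS the numbers were 1 higher (GOX3) and 1 lower (BASS6), beside 11.9% and 6.46% of loci, and 0 were lower with a pseudocount of 5 FPKM. The first enzyme of the cycle could not be followed, since PGLP1 (AT5G36700), a phosphoglycolate phosphatase, was listed at 0 in all populations and the related locus AT5G36790 at 0 in all but w5C6, where it read 0.0611 FPKM. These 2 loci can share reads, and counting could have lost them. Being under 1 FPKM in all populations, they could not pass in either direction.

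Other enzymes of glycine and ammonia handling lay under the limit in w5C6 over C6. GDCH2, the H protein gene with the highest level, read 404 FPKM in w5C6, 355 in C6, 290 in W5NS and 314 in W5S. GS2, the plastid glutamine synthetase, read 194 FPKM in w5C6, 104 in C6, 109 in W5NS and 114 in W5S. GS2 came near the limit in w5C6 over C6 with a log2 ratio of 0.88 and GDCH2 did not, with 0.19. BOU, a mitochondrial carrier needed for glycine decarboxylase activity, read between 30.4 and 32.6 FPKM in all 4 populations.

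In several enzyme families the make-up differed between w5C6 and the other populations, while in others it differed little. GOX3, the glycolate oxidase relative that acts on lactate in roots, was 94.5% of the summed GOX level in C6, 89.5% in W5NS, 50.5% in W5S and 11.8% in w5C6. In W5S GOX1, GOX2 and GOX3 were each under 1 FPKM and summed to 1.64 FPKM, so the share there has no known precision. In absolute terms GOX3 read 15.0 FPKM in w5C6, 20.9 in C6, 3.73 in W5NS and 0.826 in W5S, so its lower share in w5C6 went with the higher levels of GOX1 and GOX2. HPR1 was 23.5% of the HPR1, HPR2 and HPR3 sum in w5C6 and between 0.309% and 0.626% elsewhere, while HPR2, the cytosolic hydroxypyruvate reductase, remained the largest part of that sum at 64.8% in w5C6. SHM1 was 40.5% of the mitochondrial SHM1 and SHM2 sum in w5C6 and between 11.0% and 12.7% in the others. SHM2 itself read between 68.3 and 85.0 FPKM in all 4. PMDH2 was 25.1% of the peroxisomal malate dehydrogenase sum in w5C6 and at most 1.27% elsewhere. GDCH1 and GDCH3 together with GDCH2 showed a smaller shift, with GDCH2 still 89.0% of the H protein sum in w5C6. In the catalase family CAT2 held between 89.7% and 94.6% of the sum in all populations, and CAT1 and CAT3 stayed below 9 FPKM.

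**Figure D3:**
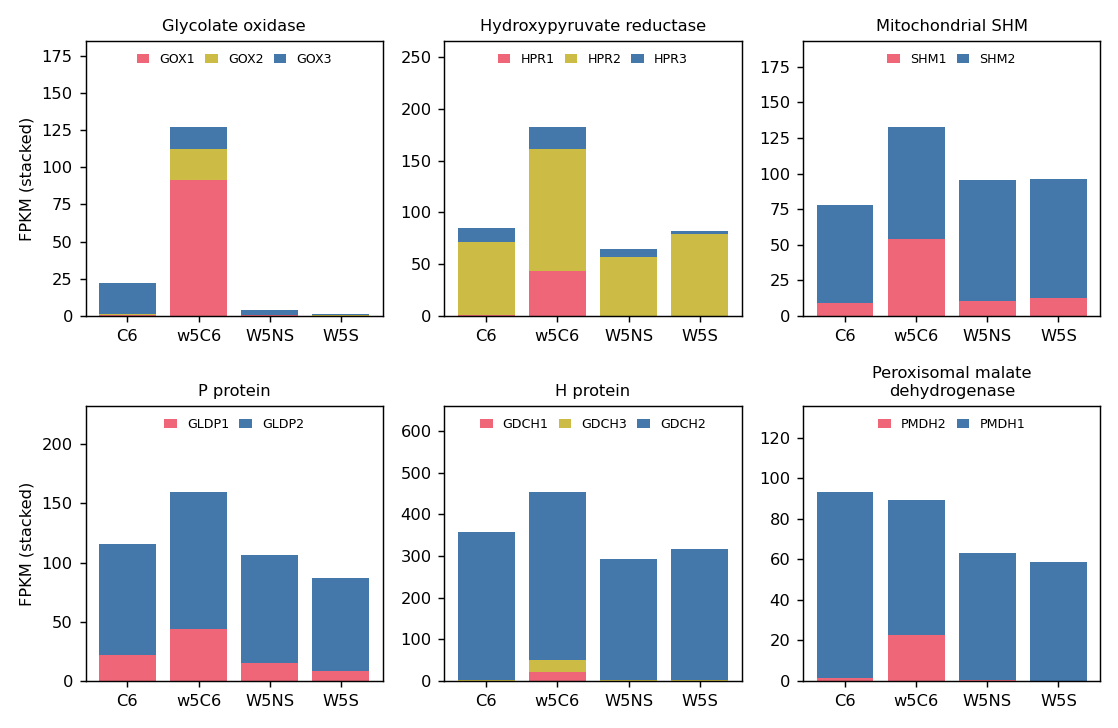
Stacked FPKM of the genes in 6 enzyme families, with 1 bar per population holding 1 pooled value per gene and no error bar. GOX1, HPR1, SHM1 and PMDH2 form a visible part of the bar in w5C6 (71.8%, 23.5%, 40.5% and 25.1% of their families), and GDCH2 holds 89.0% or more of the H protein bar in each population.

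Relatives outside the pathway were counted in the same way. Of 10 family copies, 1 was past 2-fold higher in w5C6 over C6 (GLYR2, a plastid and mitochondrial glyoxylate reductase) and 2 lower, with a median of 0.05, beside 12.3% and 4.90% of all loci. With a pseudocount of 5 FPKM 0 were higher. The 2 lower were SHM5, at 5.54 FPKM in w5C6 beside 38.6 in C6, 5.17 in W5NS and 34.9 in W5S, and SHM7, at 34.2 FPKM in w5C6 beside 120 in C6, 55.2 in W5NS and 51.9 in W5S. SHM4, the cytosolic serine hydroxymethyltransferase, read between 406 and 591 FPKM. Among 9 peroxisomal genes of protein import and fatty acid beta oxidation, 0 were past 2-fold higher in w5C6 over C6 and ACX1, an acyl-CoA oxidase, was past 2-fold lower (164 against 79.1 FPKM), with a median of -0.12. Among 10 genes of the mitochondrial tricarboxylic acid cycle 0 passed in either direction, and the median was 0.01.

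Genes of Rubisco and the Calvin cycle, the source of the substrate for photorespiration, were counted too. Of 19 genes, 15 were past 2-fold higher in w5C6 over C6 and 0 lower, beside 12.3% and 4.90% of all loci. Their median log2 ratio was 4.85. In w5C6 over W5NS 15 were higher as well and 0 lower, beside 16.3% and 3.81% of loci. Of the 19 genes 10 reached 1 FPKM in C6 and 8 in W5NS, and the others could pass in this direction only. In C6 over W5NS 2 passed higher (RBCS1A and RBCS3B) and 0 lower, beside 11.9% and 6.46% of loci. In the latter, 0 were higher with a pseudocount of 5 FPKM, and 1 was higher and 1 lower with median-ratio scaling. RCA, the Rubisco activase, read 109 FPKM in w5C6, 1.27 in C6, 1.26 in W5NS and 0.887 in W5S. TKL1, a transketolase that also serves the pentose phosphate pathway, read 99.1 FPKM in w5C6 and 73.5 in C6 and lay under the limit. Of 5 regulators of nuclear photosynthesis genes, 2 were past 2-fold higher in w5C6 over C6, beside 12.3% of all loci. These were GLK1 and GNC, at low levels of 2.71 against 0.206 FPKM and 2.33 against 0.307 FPKM. Neither passed with a pseudocount of 5 FPKM. GLK2, which was well above GLK1 in all populations, read 15.5 FPKM in w5C6, 11.9 in C6, 7.64 in W5NS and 21.7 in W5S. The summed level of the chloroplast-encoded loci was 20587 FPKM in w5C6, 10345 in C6, 9822 in W5NS and 8716 in W5S.

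Markers of shoot and leaf cells outside photosynthesis were read beside these values, since photorespiration genes are known mainly from leaves. Of the 11 markers, 7 reached 1 FPKM in w5C6, 1 in C6, 3 in W5NS and 2 in W5S. The share of all loci reaching 1 FPKM was not counted per population. Fewer loci were listed at 0 in w5C6 (3957) than in C6 (5849), W5NS (5560) or W5S (8239), so these counts cannot be read as particular to the markers. Their sum was 15.6 FPKM in w5C6, 4.98 in C6, 30.9 in W5NS and 29.6 in W5S, where STM, the shoot meristem homeobox gene, made up 20.2 FPKM in W5NS and 26.5 in W5S. Without STM the sums were 13.5, 4.09, 10.7 and 3.14 FPKM in the same order. CER1 of wax synthesis and the guard cell gene FAMA were the highest in w5C6, at 2.46 and 2.45 FPKM, and the leaf polarity gene FIL read 0.427 FPKM there and was listed at 0 in the other 3 populations. In w5C6 over C6 2 of the 11 were past 2-fold higher (CER1 and YAB2), beside 12.3% of all loci, and all 11 log2 ratios were above 0. The median over all loci was 0.10, and the share of all loci above 0 was not counted. With a pseudocount of 5 FPKM 0 markers passed, and the median of the markers went from 0.70 to 0.20. In w5C6 over W5NS 2 were past 2-fold higher (CER1 and YAB2) and 2 lower (STM and PDF1), beside 16.3% and 3.81% of loci. In that comparison a pseudocount of 5 FPKM gave 0 higher and 1 lower, and median-ratio scaling 1 higher and 2 lower. The part of such cells in the levels of GOX1, HPR1 and the other photorespiration genes was not tested.

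**Figure D4:**
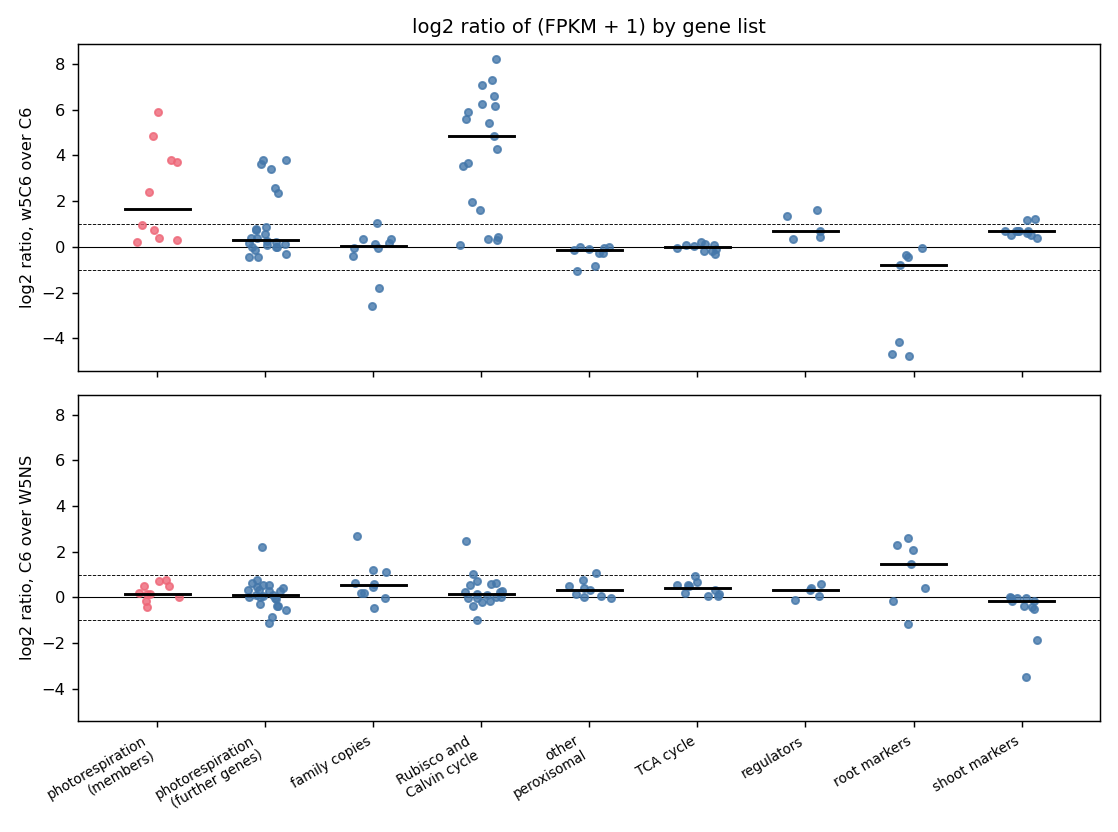
Log2 ratio of FPKM + 1 for each gene of 9 lists, in w5C6 over C6 (top) and C6 over W5NS (bottom), with points spread sideways for visibility, a bar at the list median and dashed lines at 2-fold. In the top panel 5 photorespiration genes and 15 Rubisco and Calvin cycle genes lie above the upper dashed line. In the bottom panel all 10 photorespiration genes lie between the dashed lines. GOX1, GOX2, AGT1 and HPR1, under 1 FPKM in C6 and W5NS, could not lie outside them there.

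The loci most like the photorespiration genes were sought by the distance between log2(FPKM + 1) values over the 4 populations, which is a description over 4 points. Nearest to the median profile of the 10 genes were ATCG00350, a chloroplast-encoded locus, at a distance of 0.29, followed by MIR169d (0.38), CYCP3;2 (0.48), AT4G17670 (0.54) and AT5G62280 (0.57). This median profile was 3.95 in C6, above GOX1, GOX2, AGT1, HPR1 and SHM1 and below the other genes. It is thus the profile of no single gene, and these loci need not resemble any of the 10. For the median profile of GOX1, GOX2, AGT1 and HPR1, a choice made after the values were seen, the nearest loci were GAPB at 0.40, PSAH-1 at 0.43, GDCH1 at 0.56, GUN4 at 0.60 and ATPC1 at 0.66. GAPB, a Calvin cycle dehydrogenase subunit, read 34.2 FPKM in w5C6, 0.223 in C6, 0.237 in W5NS and 0.119 in W5S. PSAH-1, a photosystem I subunit, read 29.5 FPKM in w5C6 and 0.380 in C6 and was listed at 0 in W5NS and W5S. GUN4, a factor of chlorophyll synthesis, read 20.8 FPKM in w5C6 and between 0.0487 and 0.462 in the others.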

How the data were processed

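Root tips of 5-day-old seedlings were protoplasted and GFP-sorted, and RNA was amplified with a low-input SMART-Seq kit, in which rare transcripts can drop out. Within TuxNet the authors ran fastq-mcf for trimming, HISAT2 for alignment and Cufflinks for expression. Versions, build and annotation were not given in sources used here, and no coordinates or sequences are printed. Each locus has 1 deposited value per population, taken as FPKM since the pipeline implies it, while the header names no unit. The table also holds 12 columns of the authors' own log2 folds and q-values, which were not used. Depth per library is unknown, and 282 loci that merge several gene IDs were kept as 1 locus each. Of 33493 gene IDs, 32756 matched the TAIR10.1 gene table, used for names and neighbours, including all 105 listed genes.

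Log2 ratios took FPKM + 1. Called means past 2-fold, the background being loci of at least 1 FPKM in either population. No test was run. Members and the 8 further lists were chosen with earlier results of these data known. All members were named. The other genes named were picked, after values were seen, from list genes past 2-fold in w5C6 over C6 or over W5NS, the 3 genes of highest mean FPKM in each list, and the 5 loci nearest in profile to the members. PSAH-1, GUN4 and ATPC1 came from a second search. It sought the 5 loci nearest to the profile of GOX1, GOX2, AGT1 and HPR1, a choice made after values were seen. Many genes that meet the first rule are not named. PGLP1, AT5G36790, SHM2, CAT1, CAT3, BASS6, BOU, CYCD6;1 and FIL fell outside it. Alternatives were pseudocounts of 0.1 and 5, a 4-fold limit, 2 scalings (by median ratios and to equal sums over nuclear loci) and filters on low values. Counting was tested on simulated data in which well-detected loci were changed by a fixed factor with no noise. That checks the code only and not calls near 1 FPKM. Python 3.11.15, pandas 2.3.3, NumPy 2.4.6 and matplotlib 3.10.9 were used.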

Additional observations from a re-analysis of the deposited data

How the results depend on the processing

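No paired analysis was possible because the values were pooled per population, and for the same reason no library could be left out. The 5, 6 and 7 photorespiration genes past 2-fold higher in w5C6 over C6, W5NS and W5S became 1, 2 and 3 when at least 1 FPKM was required in both populations, since that leaves 6 genes. Over all loci 5.97%, 11.9% and 15.5% were higher under this filter, against 12.3%, 16.3% and 26.6%. With a pseudocount of 0.1 FPKM the numbers past 2-fold higher were 2 in C6 over W5NS, 1 in W5S over W5NS and 4 in C6 over W5S, where 0, 0 and 2 passed with a pseudocount of 1 FPKM. Over all loci these shares were 15.4%, 8.48% and 24.3%, against 11.9%, 6.32% and 19.1%. The genes added were GOX2 and AGT1 in C6 over W5NS, GOX2 in W5S over W5NS, and GOX1 and AGT1 in C6 over W5S. All were under 1 FPKM in both populations compared, where a pseudocount of 1 FPKM allows no call. In C6 over W5S a pseudocount of 5 FPKM gave 1, a 4-fold limit 0, and equal nuclear sums 1 higher and 1 lower. Of 84 recomputed counts of these 10 genes 74 stayed within 1.5 times, while 17 of their recomputed medians moved and 19 did not. The counts include those of genes past 2-fold lower. These were 0 in the main setting and stayed 0 except in C6 over W5S with equal nuclear sums. A match of 0 with 0 was taken as staying, which raises the 74. The 10 genes were not filtered in the main setting. The setting with no filter on low values was therefore the same for them, and its counts and medians could not move. This raises both the 74 and the 19. Of the recomputed counts and medians of the other lists, 66 moved, 3 changed sign and 219 did neither. The median of the other peroxisomal genes changed sign with median-ratio scaling in w5C6 over W5NS (to -0.083) and C6 over W5S (to -0.043), as did that of the tricarboxylic acid cycle in W5S over W5NS (to 2.30e-05). The counts over all loci with equal nuclear sums stand beside the main ones above. Since the depth is unknown, no precision can be given for values under 1 FPKM.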
